A study of Mus musculus with 7 samples.

Results

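YAP and TAZ (gene symbol Wwtr1) are transcriptional coactivators that the kinases of the Hippo pathway keep out of the nucleus. They do not bind DNA themselves. They act through the 4 TEAD factors, which recognise the MCAT element found in many muscle promoters, and the vestigial-like proteins VGLL2 and VGLL3 compete for the same surface of the TEADs and are known as muscle cofactors. The matricellular genes Ccn1 and Ccn2 are the textbook target genes of this pathway. In muscle stem cells (MuSCs), YAP and TAZ are known to promote proliferation, and Tead4 is known as a gene that the myogenic factors turn on in differentiating myoblasts. The 10 genes described here are the coactivators Yap1 and Wwtr1, the factors Tead1, Tead2, Tead3 and Tead4, the cofactors Vgll2 and Vgll3, and the targets Ccn1 and Ccn2. They were chosen by name, from the 56748 genes of the count files, as the Hippo pathway effectors, their muscle cofactors and a pair of direct targets.

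The data are 7 nanopore direct cDNA libraries made from hind limb MuSCs of adult mice, 3 from WT mice (WT 1 to 3) and 4 from homozygous Jag2sm mice (Jag2sm 1 to 4). Jag2 encodes a ligand of the NOTCH receptors, and Jag2sm is a naturally occurring allele with a missense change in the extracellular part of the protein. The genotype label calls these mice Jag2-/-, but the allele still makes a transcript. In all 7 libraries the cells had passed a magnetic sort that removed cells carrying CD31, CD45 or Sca1 and kept those carrying integrin α7. The growth protocol in the labels goes on to culture in growth medium with serum and bFGF, and the labels do not say how long the sequenced cells were kept in it, if at all. No label names the animal behind a library, so the p-values below measure the spread between these libraries, which may be partly technical. The labels number batches 1 to 4, and Jag2sm 4 is the only library of batch 4.

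Gene counts per library ran from 187834 to 1937581. WT 1 was the smallest, so that 1 count in it stood for 5.76 CPM (counts per 1000000 gene counts, after TMM scaling). Reads that did not align made up 2.44% to 3.24% of the WT libraries and 3.07% of Jag2sm 3, but 50.8%, 46.7% and 46.0% of Jag2sm 1, 2 and 4, and their part in the results was not tested. Of the reads that aligned, 45.1% in WT 1 fell outside annotated genes, against 20.8% to 25.7% in the other libraries. Jag2 itself was detected at 80.7 to 115.7 CPM in WT and 42.4 to 78.8 CPM in Jag2sm, with a log2 fold change of -0.64 (edgeR adjusted p = 0.166). Since the allele is a missense change, this level does not check the labels. In bulk RNA, fewer cells of a type and less RNA per cell cannot be told apart.

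The DNA just upstream of these genes is shown because TEAD factors bind the letters GGAATG, which read CATTCC on the other strand and form the core of the MCAT element, and because Ccn1 is a known TEAD target. The 250 bases before the start of the canonical transcript were read for 9 of the genes from GRCm39, the build of the files. Matches on either strand are in capitals and everything else is in lower case. Tead4 lies on the minus strand of chromosome 6 (gene chr6:128201251-128277786), and its window, chr6:128277777-128278026, held no match. The window of Ccn1, chr3:145355739-145355988 on the minus strand, held 1 match, 105 bases before the start.
Tead4: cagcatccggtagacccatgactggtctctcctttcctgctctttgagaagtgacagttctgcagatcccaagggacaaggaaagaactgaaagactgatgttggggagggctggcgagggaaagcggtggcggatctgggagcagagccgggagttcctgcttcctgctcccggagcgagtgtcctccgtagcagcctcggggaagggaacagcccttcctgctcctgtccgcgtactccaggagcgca
Ccn1: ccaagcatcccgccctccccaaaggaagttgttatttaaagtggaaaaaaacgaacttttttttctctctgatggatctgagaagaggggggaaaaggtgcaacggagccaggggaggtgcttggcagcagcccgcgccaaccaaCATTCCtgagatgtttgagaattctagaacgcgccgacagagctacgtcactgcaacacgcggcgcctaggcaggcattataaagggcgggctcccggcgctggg

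For the other genes with a match, the stretch around it is given with 30 bases on each side, 5′ to 3′ on the strand of the gene. The match of Yap1 (chr9:8004703-8004768, minus strand) lay 77 bases before the start, that of Wwtr1 (chr3:57483432-57483497, minus strand) 218 bases, that of Tead1 (chr7:112278299-112278364, plus strand) 193 bases and that of Tead3 (chr17:28569926-28569991, minus strand) 170 bases.
Yap1: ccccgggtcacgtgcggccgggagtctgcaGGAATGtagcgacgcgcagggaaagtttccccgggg
Wwtr1: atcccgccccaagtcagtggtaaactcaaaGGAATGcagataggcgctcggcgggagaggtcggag
Tead1: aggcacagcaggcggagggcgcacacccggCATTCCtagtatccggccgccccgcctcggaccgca
Tead3: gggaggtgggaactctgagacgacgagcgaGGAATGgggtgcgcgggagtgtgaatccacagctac

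In all, 5 of the 9 windows held the 6 letters, and those of Tead2, Tead4, Vgll2 and Vgll3 did not. Of 21769 windows of the same length, 12.1% held them. The E-box CANNTG, the letters bound by MYOD and its relatives, was in the windows of Yap1 and Vgll3 and in 64.8% of all windows. The E-box form CAGCTG (in 11.9% of all windows) and the CArG box bound by SRF (in 1.40%) were in none of the 9. Both strands were searched, and no match to 1 of these motifs overlapped a match to another, apart from CAGCTG being a form of CANNTG. These matches are letters in a short window and do not show that a factor binds there.

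Tead4 fell steeply in Jag2sm MuSCs, to a level 7.21-fold lower than in WT, and it was the only gene of the 10 that passed the test. The other 9 did not pass. Vgll2 was lower in every Jag2sm library than in any WT library but missed the threshold, and for the coactivators and the targets the values of the genotypes overlapped. All 10 genes passed the filter on low counts and were among the 9489 genes tested. A gene is called here when its edgeR quasi-likelihood p, adjusted by Benjamini-Hochberg over all 9489 genes, is under 0.05. By that rule 1 of 10 was called, against 6.26% of all genes tested (4.84% lower and 1.42% higher in Jag2sm). The groups did not overlap for 2 of the 10, Tead4 and Vgll2, both lower in Jag2sm, against 22.5% of all genes tested (12.2% lower, 10.3% higher). The median log2 fold change was -0.36 over the 10 and 0.05 over all genes tested, and 7 of the 10 values were negative. The counts behind these values ran from 40 (Tead2, WT) to 1044 (Ccn1, Jag2sm) per genotype, so precision differed widely among the genes.

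**Figure D1:**
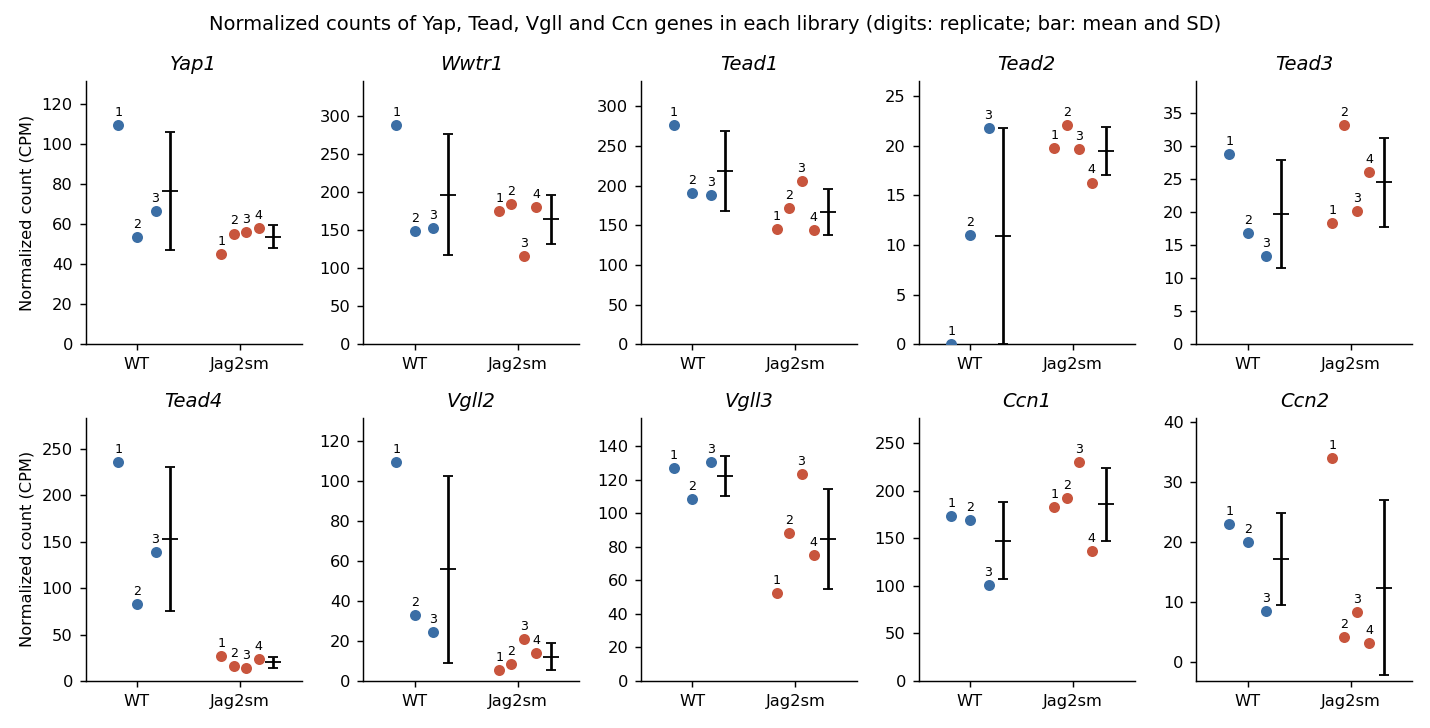
CPM after TMM scaling (y axis, linear, its own scale in each panel) of the 10 genes in the 3 WT and 4 Jag2sm libraries. Each point is a library with its replicate number, and the bar beside the points gives the mean and SD of a genotype. Tead4 and Vgll2 are the panels in which the WT points all lie above the Jag2sm points, and WT 1 is the highest WT library of Yap1, Wwtr1, Tead1, Tead3, Tead4, Vgll2, Ccn1 and Ccn2.

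The coactivators Yap1 and Wwtr1 did not pass the test. Yap1 (ENSMUSG00000053110.14, chr9:7932000-8004661) was at 109.5, 53.6 and 66.4 CPM in WT 1, 2 and 3 and at 45.2, 55.3, 56.2 and 57.9 CPM in Jag2sm 1 to 4. The highest value was that of the shallow library WT 1, which rests on 19 counts, and the groups overlapped because WT 2 lay below 3 of the Jag2sm libraries. The mean was 76.5 ± 29.3 CPM (SD, n = 3) in WT, against 53.6 ± 5.70 CPM (SD, n = 4) in Jag2sm, with a log2 fold change of -0.36 (SE 0.249, 95% interval -0.91 to 0.19, edgeR adjusted p = 0.468). The exact two-sided permutation test over the 35 ways to split the libraries, whose smallest possible p is 0.0286, gave p = 0.114. Within batches 1, 2 and 3 the log2 difference of Jag2sm from WT was -1.24, 0.04 and -0.23.

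Wwtr1, which encodes TAZ (ENSMUSG00000027803.15, chr3:57363067-57483331), was at 288, 149 and 153 CPM in WT and at 175, 184, 116 and 180 CPM in Jag2sm. Again WT 1 was highest, and Jag2sm 3 stood below the other 3 Jag2sm libraries. The log2 fold change was -0.20 (SE 0.284, 95% interval -0.82 to 0.43, edgeR adjusted p = 0.762; exact permutation p = 0.571), and it was 0.11 (adjusted p = 0.833) without WT 1. Within batches the log2 differences were -0.71, 0.31 and -0.39. More counts came from Wwtr1 than from Yap1 in all 7 libraries. Yap1 held 28.1% ± 1.96 (SD, n = 3) of the counts of the pair in WT and 25.1% ± 5.26 (SD, n = 4) in Jag2sm, and the groups overlapped. Yap1 is overlapped on the opposite strand by an exon of Gm20416, and how the authors' counting treated strand is not given in the sources used here.

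Among the TEAD factors, Tead4 moved and the others did not pass the test. Tead4 (ENSMUSG00000030353.16) was at 236, 83.4 and 138 CPM in WT 1, 2 and 3, from 41, 129 and 146 counts. In Jag2sm 1 to 4 it was at 26.9, 15.9, 14.3 and 23.6 CPM, from 19, 23, 29 and 29 counts. Every WT library lay above every Jag2sm library, and the lowest WT value was 83.4 CPM against 26.9 CPM for the highest Jag2sm value. The mean was 153 ± 77.5 CPM (SD, n = 3) in WT, against 20.2 ± 6.05 CPM (SD, n = 4) in Jag2sm, and the log2 fold change was -2.85 (SE 0.360, 95% interval -3.64 to -2.05, edgeR adjusted p = 0.00285). The exact permutation p was 0.0286, the smallest this design allows.

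Tead4 was lower in Jag2sm within each batch that holds both genotypes, with log2 differences of -3.06, -2.27 and -3.13. It stayed past the threshold with each of the 7 libraries left out, the log2 fold change running from -3.18 to -2.51 and the adjusted p from 0.00367 to 0.0202. By p it was number 27 of the 9489 genes tested. By size of change it stood at number 143 of the 459 genes called lower, so that many genes fell further. No exon of another gene overlaps Tead4.

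Tead1, the most abundant TEAD gene in counts (ENSMUSG00000055320.19, chr7:112278522-112506014), was at 277, 191 and 189 CPM in WT and at 146, 172, 206 and 143 CPM in Jag2sm. Only Jag2sm 3 reached the WT range. The log2 fold change was -0.35 (SE 0.230, 95% interval -0.86 to 0.16, edgeR adjusted p = 0.438; exact permutation p = 0.171), and the differences within batches were -0.92, -0.15 and 0.13.

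Tead2 and Tead3 were the scarce TEAD genes, and their point estimates were positive. Tead2 (ENSMUSG00000030796.18, chr7:44865172-44883071) was at 0, 11.0 and 21.8 CPM in WT and at 19.8, 22.1, 19.7 and 16.3 CPM in Jag2sm. A count of 0 in WT 1 allows up to 17.3 CPM at its depth (3 counts, counting error only), which is above the values of WT 2 and Jag2sm 4. Its log2 fold change was 0.47 (SE 0.427, 95% interval -0.48 to 1.41, edgeR adjusted p = 0.601; exact permutation p = 0.114). Exons of Cd37 and Gm73183 overlap it on the opposite strand. Tead3 (ENSMUSG00000002249.22, chr17:28550645-28569791) was at 28.8, 16.8 and 13.3 CPM in WT and at 18.4, 33.2, 20.2 and 26.1 CPM in Jag2sm, and the ranges overlapped. Its log2 fold change was 0.55 (SE 0.335, 95% interval -0.19 to 1.29, edgeR adjusted p = 0.403; exact permutation p = 0.400). Within batches the differences were 3.65, 0.91 and -0.14 for Tead2 and -0.60, 0.91 and 0.55 for Tead3. The value of 3.65 is set by the prior count of 2, since WT 1 had no Tead2 count.

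The make-up of the TEAD counts differed between the genotypes. Tead4 gave 43.6% of the TEAD counts in WT 1 (41 of 94 counts, exact 95% interval 33.4% to 54.2%), 27.6% in WT 2 (129 of 467, 23.6% to 31.9%) and 38.2% in WT 3 (146 of 382, 33.3% to 43.3%). In Jag2sm it gave 12.8% (19 of 149, 7.86% to 19.2%), 6.53% (23 of 352, 4.19% to 9.64%), 5.49% (29 of 528, 3.71% to 7.79%) and 11.3% (29 of 257, 7.69% to 15.8%). The highest Jag2sm share lay below the lowest WT share, also by their intervals, which cover counting error only. On average Tead4 held 36.5% ± 8.14 (SD, n = 3) of the TEAD counts in WT and 9.02% ± 3.54 (SD, n = 4) in Jag2sm. Tead1 held 55.4% ± 6.71 (SD, n = 3) in WT and 71.9% ± 4.95 (SD, n = 4) in Jag2sm. The shares of Tead2 (3.22% against 8.46%) and Tead3 (4.85% against 10.6%) were likewise higher in every Jag2sm library than in any WT library. Shares of a fixed sum move together, so the higher shares of the other 3 genes add nothing to the fall of Tead4, and no test was run on them.

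Summed over the 4 genes, TEAD RNA was 402 ± 125 CPM (SD, n = 3, 302 to 542) in WT and 231 ± 25.0 CPM (SD, n = 4, 210 to 260) in Jag2sm, without overlap. This sum includes Tead4, the only TEAD gene called, so it does not show a fall of the other TEAD genes.

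**Figure D2:**
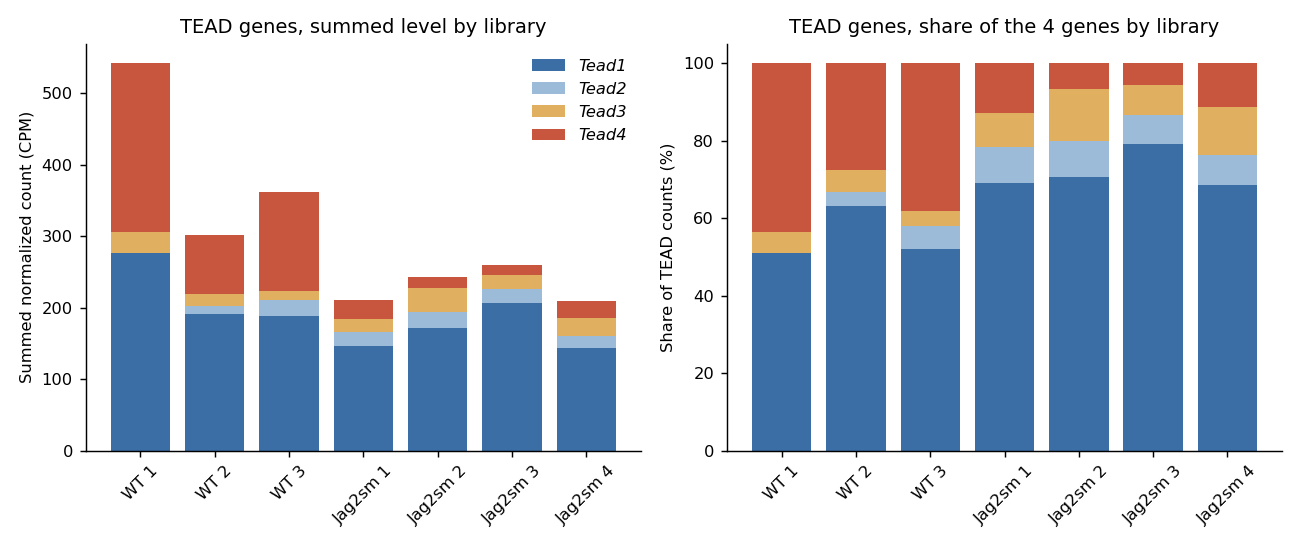
Stacked bars of the 4 TEAD genes, each colour a gene, in each library (x axis), as summed CPM in the left panel and as percent of the TEAD counts in the right panel (y axes). The Tead4 part spans 27.6% to 43.6% in the WT libraries and 5.49% to 12.8% in the Jag2sm libraries, and Tead1 is the largest part in all 7.

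The vestigial-like cofactors showed lower values in Jag2sm but did not pass the test. Vgll2, which is known for its expression in skeletal muscle (ENSMUSG00000049641.16, chr10:51898305-51906223), was at 109.5, 33.0 and 24.7 CPM in WT (19, 51 and 26 counts) and at 5.66, 8.29, 20.7 and 13.9 CPM in Jag2sm (4, 12, 42 and 17 counts). The groups did not overlap, though WT 3 and Jag2sm 3 lay close together, and WT 1 stood far above the other WT libraries. The mean was 55.7 ± 46.8 CPM (SD, n = 3) in WT, against 12.1 ± 6.66 CPM (SD, n = 4) in Jag2sm, and the log2 fold change was -1.72 (SE 0.536, 95% interval -2.91 to -0.54, edgeR adjusted p = 0.0900, unadjusted p = 0.00861). The exact permutation p was 0.0571. Without WT 1 the log2 fold change was -1.16 (edgeR adjusted p = 0.152). It passed with DESeq2 (-1.97, adjusted p = 0.0256) and in edgeR without the filter on low counts (-1.67, adjusted p = 8.78e-05), so its call turned on the processing. Within batches 1, 2 and 3 the log2 difference was -3.92, -1.79 and -0.23.

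Vgll3 (ENSMUSG00000091243.3, chr16:65611923-65663369) was at 127, 109 and 131 CPM in WT and at 52.3, 88.4, 123 and 75.0 CPM in Jag2sm. Jag2sm 3 lay within the WT range and the other Jag2sm libraries below it. The log2 fold change was -0.49 (SE 0.273, 95% interval -1.10 to 0.11, edgeR adjusted p = 0.354; exact permutation p = 0.114), with -1.25, -0.29 and -0.09 within batches. Vgll3 gave more counts than Vgll2 in every library. Vgll2 held 15.9% to 46.3% of the counts of the pair in WT and 8.57% to 15.6% in Jag2sm, so the shares came close to touching.

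The targets Ccn1 and Ccn2 did not pass the test, and their estimates had opposite signs. Ccn1, also known as Cyr61 (ENSMUSG00000028195.5, chr3:145352720-145355738), was at 173, 169 and 101 CPM in WT and at 182, 193, 231 and 137 CPM in Jag2sm. WT 1 and WT 2 lay between Jag2sm 4 and Jag2sm 1, and Jag2sm 3 was highest. The log2 fold change was 0.36 (SE 0.265, 95% interval -0.22 to 0.95, edgeR adjusted p = 0.499; exact permutation p = 0.286), with 0.08, 0.19 and 1.18 within batches. It rests on 397 counts in WT and 1044 in Jag2sm.

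Ccn2, also known as CTGF (ENSMUSG00000019997.12, chr10:24471333-24474900), was scarce, with 44 counts in WT and 51 in Jag2sm. It was at 23.1, 20.0 and 8.54 CPM in WT and at 33.9, 4.15, 8.38 and 3.26 CPM in Jag2sm. Jag2sm 1 was the highest of all 7 libraries and the other 3 Jag2sm libraries the lowest of all. The log2 fold change was -0.56 (SE 0.735, 95% interval -2.19 to 1.06, edgeR adjusted p = 0.731; exact permutation p = 0.343), and without Jag2sm 1 it was -1.48 (adjusted p = 0.147). Within batches it was 0.53, -1.89 and -0.02. Jag2sm 1 also stood apart in Rgs5, a marker of mural cells, at 645 CPM against 25.3 to 40.4 CPM in the other Jag2sm libraries and 11.5 to 14.2 CPM in WT, and in the CCN gene Ccn3, at 72.1 CPM against at most 5.91 CPM in any other library. Their part in the Ccn2 value was not tested. Exons of Gm17501 and Gm15270 overlap Ccn1 and Ccn2, respectively, on the opposite strand.

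**Figure D3:**
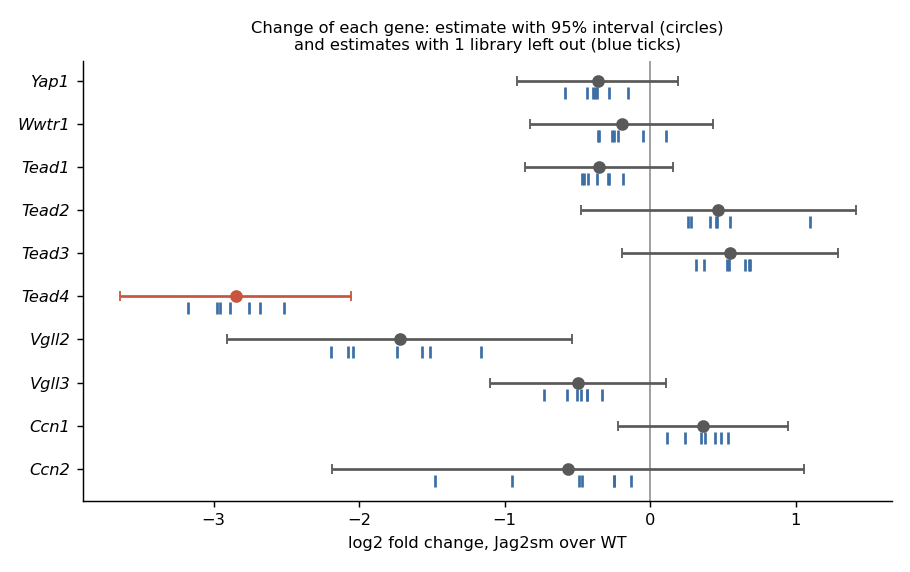
Log2 fold change of Jag2sm over WT (x axis) from the edgeR fit across all 9489 genes for the 10 genes (y axis), with 95% intervals as bars and blue ticks for the estimates with 1 library left out. The interval of Tead4, -3.64 to -2.05, lies far from 0, that of Vgll2 lies below 0 before adjustment over all genes, and the other 8 intervals span 0.

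Levels of different genes are ordered here per length of transcript. Whether counts grow with transcript length in these nanopore cDNA libraries was not tested, and the order depends on this scaling. By CPM alone, Tead1 was number 1 in WT and Ccn1 number 4. In CPM per kilobase, Ccn1 was highest in both genotypes, at 72.5 ± 20.0 (SD, n = 3) in WT and 91.4 ± 19.0 (SD, n = 4) in Jag2sm, followed by Wwtr1 at 41.8 ± 16.9 and 34.9 ± 6.88. In WT the order then went Vgll2, Tead4, Tead1, Yap1, Vgll3, Tead3, Ccn2 and Tead2, and Vgll3 and Tead3 were the only neighbours whose ranges over the libraries did not overlap. In Jag2sm it went Tead1, Yap1, Vgll3, Tead3, Tead2, Vgll2, Ccn2 and Tead4, and the ranges did not overlap from Ccn1 down to Yap1 but did overlap between all later neighbours. Tead4 stood at number 4 in WT, at 25.8 ± 13.1 CPM per kilobase (SD, n = 3), and at number 10 in Jag2sm, at 3.40 ± 1.02 CPM per kilobase (SD, n = 4). By CPM alone it was number 3 in WT and number 7 in Jag2sm.

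The genes whose log2 CPM followed that of Tead4 most closely over the 7 libraries were Popdc2 (Pearson r = 0.996), Katnbl1 (r = 0.995) and Impdh1 (r = 0.994). These correlations are a description only, since the points share libraries and genotype, and 511 of the 9489 genes had an r above 0.9 with Tead4. Popdc2, a membrane protein gene known from striated muscle, was itself called lower, at 65.2 CPM in WT and 8.91 CPM in Jag2sm on average.

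Upstream of YAP and TAZ, none of the Hippo kinases and regulators passed the test. Of 26 listed genes 24 were tested, 8 had an unadjusted p under 0.05 (against 19.7% of all genes tested), and the median log2 fold change was -0.19 against 0.05 over all genes. The groups did not overlap for 5 genes that were lower and 5 that were higher in Jag2sm, against 12.2% and 10.3% of all genes tested. Highest by mean CPM over the libraries were Map4k4, a kinase that acts on LATS, at 204 CPM in WT and 193 CPM in Jag2sm (log2 fold change -0.04, edgeR adjusted p = 0.966), and Amotl1, an angiomotin family protein that binds YAP, which owes that place to WT 1. Amotl1 was at 530, 135 and 126 CPM in WT and 79.9 to 89.1 CPM in Jag2sm. Its log2 fold change was -1.52 (SE 0.444, edgeR adjusted p = 0.0721). Without WT 1 it was smaller but past the threshold (-0.65, adjusted p = 0.0380). It also passed without WT 3 (-1.90, adjusted p = 0.0469) and with DESeq2 on all 7 libraries (-1.54, DESeq2 adjusted p = 0.0181). The related Amot (-1.37, edgeR adjusted p = 0.0688) and Amotl2 (-0.66, adjusted p = 0.206) were among the 5 genes lower without overlap.

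Downstream, a list of 20 other YAP and TAZ targets had 14 genes tested and 1 called, against 6.26% of all genes tested. That gene was Tgfb2, a secreted growth factor, which fell from 31.0 ± 8.16 CPM (SD, n = 3) to 7.33 ± 5.40 CPM (SD, n = 4), a log2 fold change of -1.93 (SE 0.492, edgeR adjusted p = 0.0431). Its call was lost with any of WT 1, WT 2, WT 3, Jag2sm 1, Jag2sm 2 or Jag2sm 3 left out, with adjusted p of 0.0553 to 0.140 and log2 fold changes of -2.10 to -1.55. The median of the list was -0.01, with 7 values above 0 and 7 below. Of the 14, 6 had an unadjusted edgeR p under 0.05, against 19.7% of all genes tested. Without overlap between the groups, 3 were lower and 1 was higher in Jag2sm, against 12.2% and 10.3% of all genes tested. Of the 4 other CCN genes only Ccn4 passed the filter on low counts, and it lay at 57.1 CPM in WT and 54.3 CPM in Jag2sm (log2 fold change -0.09, edgeR adjusted p = 0.901). Ccn3 did not pass the filter, and 51 of its 64 counts in Jag2sm came from Jag2sm 1. SRF and the actin cytoskeleton form a programme that shares many targets with YAP. Of 18 such genes 14 were tested and 1 was called, against 6.26% of all genes tested, with 4 called by DESeq2. An unadjusted edgeR p under 0.05 was found for 7, against 19.7% of all genes tested. The groups did not overlap for 5 that were higher and 1 that was lower in Jag2sm, against 10.3% and 12.2% of all genes tested. Tpm4, a cytoskeletal tropomyosin, rose from 135 ± 53.7 CPM (SD, n = 3) to 380 ± 141 CPM (SD, n = 4), a log2 fold change of 1.42 (SE 0.365, edgeR adjusted p = 0.0456), and lost its call with any library but Jag2sm 4 left out (adjusted p up to 0.152). The median of this list was 0.55, with 12 of 14 values above 0. Amotl2, Lats2 and Ptpn14 belong to both the regulator and the target list.

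Muscle genes with known MCAT elements in their promoters moved the same way as Tead4. Of 5 listed, 3 were tested and all 3 were called lower, against 4.84% of all genes tested. Acta1 also belongs to the list of differentiated muscle below. The part of MCAT elements in these falls was not tested. Cardiac troponin T Tnnt2 fell by 2.92 on the log2 scale (edgeR adjusted p = 0.00959), skeletal actin Acta1 fell by 3.28 (adjusted p = 0.0132) and slow myosin Myh7 fell by 5.05 (adjusted p = 0.0200). Leaving out Jag2sm 2 took the calls of Acta1 (-3.13, adjusted p = 0.0565) and Myh7 (-5.70, adjusted p = 0.0524). Leaving out Jag2sm 1 took that of Myh7 (-4.91, adjusted p = 0.0547). Myh7 rested on 109 counts in WT and 11 in Jag2sm, and its WT mean was 101 ± 132 CPM (SD, n = 3).

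Tead4 also moved together with the wider set of genes of differentiated muscle. Of 16 such genes 15 were tested and 14 were called lower, against 4.84% of all genes tested. The exception was Tnnt1 (edgeR adjusted p = 0.0606). The summed level of the 16 genes was 33899 to 51994 CPM in WT against 1259 to 8647 CPM in Jag2sm. Without Jag2sm 2 the count of calls was 9. The part that the share of differentiated cells has in the Tead4 value was not tested. Of 8 markers of MuSCs and myoblasts all were tested, and 1 was called lower, against 4.84% of all genes tested. It was Des, the muscle intermediate filament gene (log2 fold change -1.63, edgeR adjusted p = 0.0244). That call was lost without Jag2sm 1 (-1.64, adjusted p = 0.0601), without Jag2sm 2 (-1.60, adjusted p = 0.0890) and with the batch number as a block (-1.61, adjusted p = 0.0596). The sum of the 8 markers was 3346 to 5839 CPM in WT and 2165 to 2633 CPM in Jag2sm, without overlap. Of their log2 fold changes, 4 were above 0 and 4 below, with a median of 0.07, so the lower sum does not hold for each marker. The labelled cell type was present in both genotypes. Pax7 was at 68.4 ± 35.1 CPM (SD, n = 3) in WT, against 132 ± 29.8 CPM (SD, n = 4) in Jag2sm. Myod1 was at 778.5 ± 71.0 CPM (SD, n = 3) and 685 ± 86.3 CPM (SD, n = 4), and neither gene was called.

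Markers of immune, endothelial and glial cells were scarce in all 7 libraries. The summed level of 7 immune markers was at most 5.71 CPM in any library, with Ptprc, Adgre1 and Lyz2 at 0, that of 8 endothelial markers at most 17.3 CPM, with Kdr and Esam at 0, and that of 5 glial markers at most 12.7 CPM. The sum of 9 fibro-adipogenic markers was 63.4 to 292 CPM in WT and 235 to 396 CPM in Jag2sm, with Lum and Dpt at 0. Only 3 of these 9 were tested, and none of the 3 was called. The sum of 6 mural markers was 32.2 to 86.5 CPM in WT and 31.8 to 646 CPM in Jag2sm. Of these markers 2 were tested, and they moved in opposite directions. Abcc9 was called lower (log2 fold change -3.71). The other, Rgs5, had a log2 fold change of 3.73 and was not called, though it was higher in every Jag2sm library than in any WT library. The sum of 5 tenocyte markers was 115 to 128 CPM in WT and 30.1 to 76.6 CPM in Jag2sm, mostly Scx, which was called lower (log2 fold change -1.34, edgeR adjusted p = 0.0223) and lost its call without WT 2, WT 3, Jag2sm 1 or Jag2sm 2 (-1.36 to -1.24, adjusted p of 0.0528 to 0.0870). The tenocyte sum moved in the direction of Tead4, and its part in the result was not tested.

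**Figure D4:**
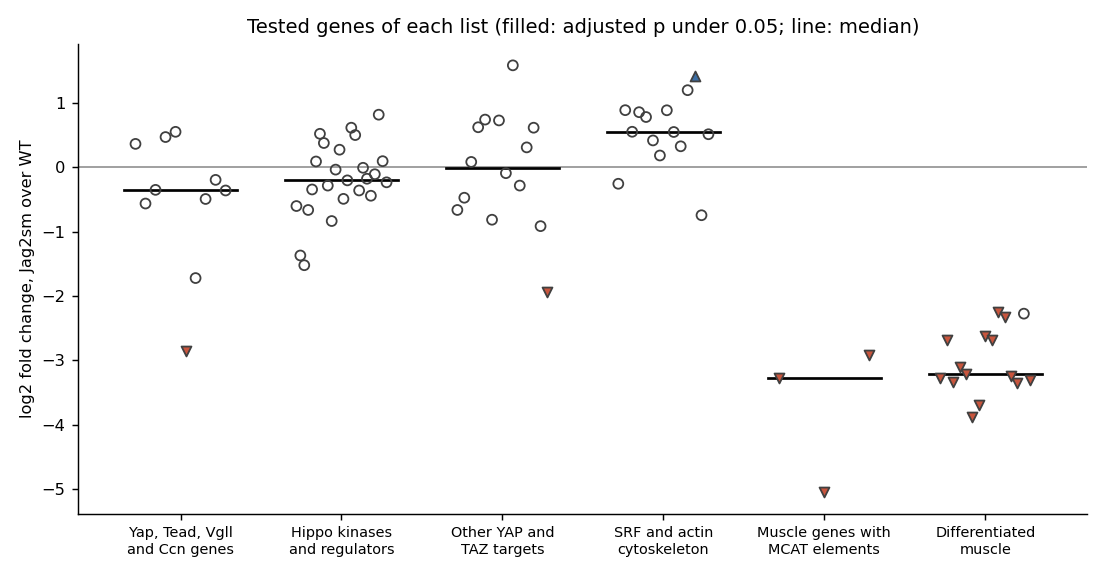
Log2 fold change of Jag2sm over WT (y axis) of the tested genes of each list (x axis), with a point for each gene, filled where the gene was called, and a line at the median of the list. Genes with MCAT elements and genes of differentiated muscle lie below 0, with medians of -3.28 and -3.21. The Hippo regulators (median -0.19, 16 below 0 and 8 above) and the other YAP and TAZ targets (median -0.01) lie on both sides of 0.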

How the data were processed

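Per the labels and the methods of the study, the authors called the bases of nanopore direct cDNA reads, aligned them with minimap2 2.17 to the GRCm39 genome and obtained counts per gene with HTSeq. The annotation release and the strand setting are not given in the sources used here. The deposited files hold raw counts of 56748 Ensembl genes in each of the 7 libraries, with 5 summary rows (45.0% to 75.2% of all reads of a library) that were left out of library sizes and tests. The authors' DESeq2 table of fold changes and p-values was not used.

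Counts were tested with edgeR 4.0.16 (R 4.3.3) after filterByExpr (minimum count 10, minimum total 15) and TMM scaling, with genotype as the only term, over 9489 genes. CPM use the TMM-scaled library size, and log2 CPM a prior count of 2. The SE of a fold change was derived as the absolute log2 fold change over the square root of the quasi-likelihood F. Intervals of fold changes use this SE and the t quantile, so they are approximate and need not match the p-value exactly. Exact permutation tests used all 35 assignments of 3 and 4 libraries to the genotypes. Gene counts were 187834, 1657016 and 1159203 in WT 1 to 3 and 671660, 1421058, 1937581 and 1223863 in Jag2sm 1 to 4. Shares carry exact (Clopper-Pearson) 95% intervals from SciPy 1.17.1, and intervals and count limits cover counting error only. Alternatives were DESeq2 1.42.0, limma-voom (limma 3.58.1), other scalings, filters and prior counts, thinning to the smallest library, and each library left out. Same-numbered libraries share a batch number in the labels, and their deviations from the group means correlated at r = 0.0740, 0.0144 and 0.0539 for numbers 1 to 3. A fit with that number as a replicate block was run. Positions, lengths and exon overlaps (bedtools 2.31.1) came from GENCODE M39, which matched 56017 of the genes, so a version other than the authors' may differ in detail.

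Named were the 10 genes, genes of the pathway and marker lists that were called, or the most abundant of lists without a call, and the 3 genes closest to Tead4. Some of these are given by counts alone. The 10 genes and the lists were chosen with earlier results of these data known. The window upstream of 1 of the 10 genes is not reported here.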

Additional observations from a re-analysis of the deposited data

Results flagged for a closer look

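Among the 4 Jag2sm libraries, a value was looked at again where its gap to the nearest of the others as a share of the whole range (the gap ratio) was above Dixon's 95% critical value for 4 samples. Of the 10 genes, 2 had such a value, where chance gives about 1 in 20 groups. Wwtr1 was lowest in Jag2sm 3, at 115.8 CPM (gap ratio 0.867), and Ccn2 was highest in Jag2sm 1, at 33.9 CPM (gap ratio 0.833). The 3 WT libraries are too few for this rule. Outside the gene counts, reads that did not align made up 50.8% of Jag2sm 1, 46.7% of Jag2sm 2 and 46.0% of Jag2sm 4, above the 2.44% to 3.24% of the WT libraries. The part of these reads in the gene results was not tested.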

How the results depend on the processing

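Tead4 was called lower under all 17 alternatives, with log2 fold changes of -3.18 to -2.51 and adjusted p of 1.91e-19 to 0.0202. Of the 10 genes, 1 was called, and 2 were called (Tead4 and Vgll2) with DESeq2 and without the filter on low counts. Wwtr1 reversed to 0.11 without WT 1 (-0.36 to 0.11 with 1 library left out), and no other of the 10 genes changed sign under any alternative that gave it a value. Over all genes 594 were called, 1248 without the filter, 274 with at least 10 counts in every library, 266 after thinning to the smallest library and 251 to 616 with 1 library left out (343 without WT 2, 341 without WT 3 and 251 without Jag2sm 2). Of the pathway list genes 5 were called, 11 with DESeq2, 12 without the filter and 1 to 5 with 1 library left out. Of the Hippo regulators none was called in edgeR (8 at an unadjusted p under 0.05), 2 with DESeq2, 2 without the filter, 1 without WT 1 and 2 without WT 3. The cause of these differences was not tested, beyond the smaller number of genes or libraries in some fits. With the batch number as a replicate block 565 genes were called, 1 of the 10 among them, Tead4 at -2.93 (adjusted p = 0.000939). The block changed the call of none of the 10 genes. Scaling to library size alone moved the median log2 fold change of all genes from 0.05 to 0.21 and the share of calls that were lower from 77.3% to 61.4% (62.5% without the filter). Depth limits the genes with few counts most. In WT 1, Tead2, Tead3, Vgll2 and Ccn2 had at most 19 counts, and Yap1 also had 19.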
